A study of Homo sapiens with 12 samples.

Results

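The myosin light chains described here are 7 genes, MYL2, MYL7, MYL3, MYL4, MYL6, MYL12A and MYL12B. They were chosen by gene name, for their roles as cardiac or non-muscle light chains, from a table of 78894 genes, and all 7 passed the filter on low counts that left 11203 genes for testing. The libraries came from cardiomyocytes made from WTC-mEGFP-ACTN2-cl85, an established human iPSC (induced pluripotent stem cell) clone with a fluorescent mEGFP tag on 1 copy of ACTN2, which encodes sarcomeric alpha-actinin. All groups share this tag and a lactate enrichment step. One group received 10 nM endothelin-1, a vasoconstrictor peptide that drives cardiomyocyte hypertrophy, together with 16 µM sacubitrilat, the active inhibitor of the peptidase neprilysin. The other groups received 10 nM endothelin-1 alone, 16 µM sacubitrilat alone, or the DMSO vehicle, each for 48 h. Every group held 3 cultures that the labels call biological replicates. The 2 primary comparisons were both compounds against endothelin-1 and endothelin-1 against vehicle.

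Each myosin heavy chain carries a pair of small calmodulin-like proteins on its lever arm. The essential light chain stiffens the lever arm, and the regulatory light chain is phosphorylated by light chain kinases and tunes force. Working cardiac muscle uses MYL2 as the ventricular and MYL7 as the atrial regulatory chain, and MYL3 as the ventricular and MYL4 as the atrial and fetal essential chain. Cardiomyocytes from stem cells are known to carry much MYL7 and MYL4 while immature, whatever chamber they resemble. Non-muscle and smooth muscle myosin uses MYL6 as the essential chain, and MYL12A and MYL12B are the non-muscle regulatory chains.

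Library totals were unequal between the groups, and this limits most comparisons below. The totals ran from 87281 to 158791 counts in the combined cultures, from 1473744 to 1781653 in the endothelin-1 cultures, from 1268308 to 1953122 in the sacubitrilat cultures and from 80844 to 316932 in the vehicle cultures. In 4 of the 6 pairwise comparisons a group of low totals was set against a group of high totals, and there the treatment and the total cannot be told apart. The 2 comparisons at like totals were both compounds against vehicle, with a ratio of summed totals of 0.67, and endothelin-1 against sacubitrilat, with a ratio of 1.09. Combined replicate 1 and vehicle replicate 2, the 2 libraries under 100000 counts, stood apart from the other libraries of their groups, and results that rest on them are given with and without them. For the 6 single-compound cultures, the description field carries a line with the opposite compound, and the grouping used here is that of the title and treatment fields. If that line held, the endothelin-1 and sacubitrilat values of every gene below would change places.

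Values are deposited CPM, each count scaled to the total of its library. Fold changes are log2 ratios ± SE from the edgeR quasi-likelihood test, and a gene was called changed at a Benjamini-Hochberg adjusted p under 0.05 over all tested genes. Markers of cardiomyocytes were present in every group: 0 of 10 listed genes, among them TNNT2, ACTN2 and TTN, was at 0 in any group. Their summed level ran from 13320 to 23430 CPM in the combined cultures, 14110 to 15240 CPM with endothelin-1, 10170 to 11110 CPM with sacubitrilat and 12070 to 13560 CPM with vehicle. Single markers did not all follow the sum. Both compounds against endothelin-1 called 3 higher, TNNC1 (1.68), TNNI1 (0.86) and TNNT2 (0.67). It called 4 lower, TTN (-1.93), MYBPC3 (-1.79), ACTN2 (-1.33) and RYR2. Endothelin-1 against vehicle called 6 higher and 1 lower, and endothelin-1 against sacubitrilat 5 higher and 0 lower.

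The closest pair among the 7 genes is MYL12A and MYL12B, which neighbour each other on chromosome 18 (GRCh38, GENCODE 29: chr18:3247481-3256236 and chr18:3261479-3278431, plus strand). Their coding sequences match at 95.7% of aligned bases, with a longest identical run of 77 bases. The stretch below, the most alike 90 bases, is shown because a read of that length from it could belong to either gene. The capital marks the base that differs, and 89 of 90 bases match.

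MYL12A: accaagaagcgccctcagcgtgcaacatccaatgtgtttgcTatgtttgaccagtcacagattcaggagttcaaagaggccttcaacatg
MYL12B: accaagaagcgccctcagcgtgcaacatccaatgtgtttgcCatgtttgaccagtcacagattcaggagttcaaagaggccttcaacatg

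The libraries count transcript ends, and in the last 300 bases of the coding transcripts 0 of 658 MYL12A windows and 0 of 358 MYL12B windows of 90 bases were shared with another gene. The other members likewise had 0 shared windows. This check covers only exact matches within those bases. The deposited counts of MYL12A and MYL12B hold fractions in some libraries, with 15.5 and 26.5 in combined replicate 2. The origin of these fractions was not tested. Coding identity was 80.1% between MYL3 and MYL4 and 68.4% between MYL2 and MYL7. Processed pseudogenes of MYL6, MYL12A and MYL12B held at most 2.5 counts in any library, and MYL6B-AS1 and MYL12-AS1, both antisense RNAs, at most 8 counts. MYL6 (chr12:56158161-56163496, plus strand) overlaps MYL6B on the same strand. MYL3 (chr3:46857872-46882169, minus strand) overlaps PTH1R on the opposite strand, and the strand setting of the counting is not given in the sources used here.

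RefSeq promoters of GRCh38.p14, 250 bases before to 50 bases after the start, were matched for 5 of the 7 genes. The table gives none for MYL2 and MYL4. The promoter of MYL7 and the inner promoter of MYL3 are shown because they belong to the cardiac forms matched, an atrial regulatory and a ventricular essential chain whose order of groups differed.

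MYL7, chr7:44141283-44141582, minus strand: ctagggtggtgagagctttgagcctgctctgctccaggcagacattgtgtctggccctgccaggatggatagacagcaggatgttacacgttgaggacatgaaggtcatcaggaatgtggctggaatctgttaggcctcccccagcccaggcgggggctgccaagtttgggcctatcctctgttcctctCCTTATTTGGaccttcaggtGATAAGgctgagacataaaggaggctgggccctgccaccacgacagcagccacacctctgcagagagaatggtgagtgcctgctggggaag
MYL3, chr3:46861635-46861934, minus strand: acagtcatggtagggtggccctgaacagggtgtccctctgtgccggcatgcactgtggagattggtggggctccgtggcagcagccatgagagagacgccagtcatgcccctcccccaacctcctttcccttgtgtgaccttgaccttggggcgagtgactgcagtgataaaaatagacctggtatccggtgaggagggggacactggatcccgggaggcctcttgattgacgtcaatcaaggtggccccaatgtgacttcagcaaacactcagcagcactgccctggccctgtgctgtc

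Capitals mark a CArG box, the motif bound by serum response factor, and GATAAG, the motif of GATA factors. They start at -61 and -41 from the start of MYL7 and do not overlap. A CArG box, a MEF2 box, TATAAA and GATAAG were searched on both strands. Of 35116 promoters of the same length, 1.29% held a CArG box, 2.99% a MEF2 box, 11.5% TATAAA and 6.36% GATAAG. The MYL3 window held none of these letters. The matches are descriptions of sequence and were not tested against the counts.

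MYL2 (chr12:110910819-110920722, minus strand), the ventricular regulatory chain, was highest in the endothelin-1 cultures. Its level was 11.5, 12.6 and 7.41 CPM in the combined cultures, from 1, 2 and 1 counts. It was 85.9, 81.4 and 91.9 CPM with endothelin-1, from 153, 120 and 158 counts, and 20.6, 19.7 and 17.4 CPM with sacubitrilat, from 28, 25 and 34 counts. The vehicle cultures had 22.1, 0 and 5.86 CPM, from 7, 0 and 1 counts. The endothelin-1 values did not overlap those of any other group, while those of the sacubitrilat and vehicle groups overlapped. A floor of 3 counts corresponds to between 18.9 and 34.4 CPM in the combined libraries and to between 9.47 and 37.1 CPM in the vehicle libraries, so the MYL2 level in those groups is known only roughly. In bulk cultures, fewer cells that express a gene and less of its RNA per cell cannot be told apart.

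MYL2 fell in the combined cultures relative to endothelin-1 (log2 fold change -3.06 ± 0.51, edgeR adjusted p = 1.13e-05). The ratio of summed counts per total was 0.121, with an exact 95% interval from 0.0329 to 0.313. This interval and those of the count ratios below pool the cultures of a group. They cover counting error only, not the spread between cultures. MYL2 rose with endothelin-1 relative to vehicle (2.64 ± 0.39, adjusted p = 3.28e-06), with a count ratio of 6.16 and an interval from 3.1 to 14.3. Without vehicle replicate 1, which holds 7 of the 8 vehicle counts, that change was 4.71 ± 0.74 (adjusted p = 1.2e-06). At like totals, it was higher with endothelin-1 than with sacubitrilat (2.30 ± 0.16, adjusted p = 3.71e-13), with a count ratio of 4.56 and an interval from 3.62 to 5.81. Below endothelin-1, the order by mean was sacubitrilat, both compounds and vehicle, and no neighbours in it were called different. The count ratio was 1.35 for sacubitrilat against vehicle, with an interval from 0.655 to 3.22. It was 0.746 for both compounds against vehicle, with an interval from 0.164 to 2.78, and 0.553 for both compounds against sacubitrilat, with an interval from 0.147 to 1.47.

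MYL7 (chr7:44138864-44141332, minus strand), the atrial regulatory chain, had the same order of group means as MYL2 with a smaller range. It stood at 5041, 4270 and 3475 CPM in the combined cultures and at 8032, 7993 and 7637 CPM with endothelin-1. It stood at 5357, 5347 and 5519 CPM with sacubitrilat and at 4682, 1546 and 4202 CPM with vehicle. The endothelin-1 cultures lay above all others, and vehicle replicate 2, the shallowest library, lay far below the other vehicle cultures. MYL7 fell in the combined cultures relative to endothelin-1 (-0.95 ± 0.32, edgeR adjusted p = 0.0197) and rose with endothelin-1 relative to vehicle (1.20 ± 0.32, adjusted p = 0.00538). Without the 2 libraries under 100000 counts these changes were -1.08 ± 0.13 and 0.82 ± 0.12. The fall was not called without combined replicate 3, endothelin-1 replicate 1 or endothelin-1 replicate 2 (adjusted p = 0.0648, 0.0581 and 0.0543), when thinned to 80000 counts per library (-0.70 ± 0.29, adjusted p = 0.0586) or at a mean of at least 50 counts (-0.48 ± 0.28, adjusted p = 0.172). For endothelin-1 against sacubitrilat the change was 0.66 ± 0.31 with an adjusted p of 0.195. That difference was called when those groups alone were fitted (0.67 ± 0.06, adjusted p = 6.97e-11) and also without the 2 shallowest libraries or without vehicle replicate 2 alone (adjusted p = 1.45e-06 and 0.0199). MYL7 for sacubitrilat against vehicle was 0.54 ± 0.32 and not called, and it was called without vehicle replicate 1 (1.06 ± 0.36, adjusted p = 0.0307).

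**Figure D1:**
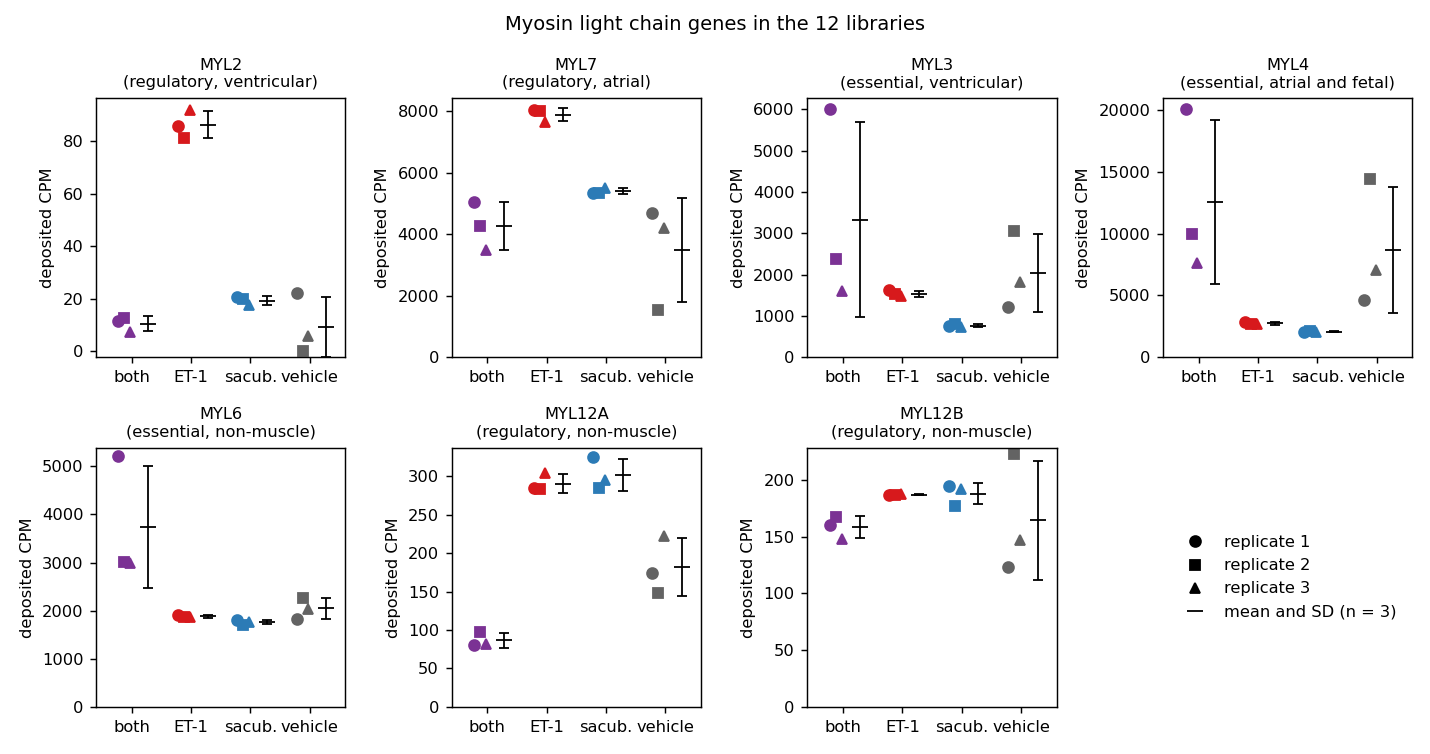
Deposited CPM (vertical axes, linear) of the 7 myosin light chain genes in 12 libraries, grouped as both compounds, endothelin-1 (ET-1), sacubitrilat (sacub.) and vehicle. Each marker is 1 culture and each bar is the group mean with its SD (n = 3). MYL2 and MYL7 stand highest with endothelin-1, while MYL4 stands between 7629 and 20085 CPM in the combined cultures, above every single-compound culture.

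MYL3, the ventricular essential chain, had another order of groups than MYL2, with the highest mean in the combined cultures and the lowest with sacubitrilat. Its level was 6015, 2374 and 1615 CPM in the combined cultures, 1616, 1529 and 1477 CPM with endothelin-1, 761.6, 801.1 and 732.2 CPM with sacubitrilat and 1208.5, 3068 and 1828 CPM with vehicle. The sacubitrilat cultures lay below all others, and combined replicate 1 lay far above the rest of its group. MYL3 was higher in the combined cultures than with sacubitrilat (2.13 ± 0.30, edgeR adjusted p = 5.39e-07) and lower with sacubitrilat than with vehicle (-1.35 ± 0.29, adjusted p = 0.000853). The first of these was 1.41 ± 0.23 without combined replicate 1 (adjusted p = 5.91e-06) and 1.47 ± 0.13 without both shallow libraries (adjusted p = 8.96e-13). It was also higher with endothelin-1 than with sacubitrilat at like totals (1.12 ± 0.28, adjusted p = 0.00535). This last call was lost without sacubitrilat replicate 1 or 3 (adjusted p = 0.0572 and 0.0633), with DESeq2 (1.13 ± 0.41, adjusted p = 0.0765) and when thinned (0.98 ± 0.43, adjusted p = 0.483).

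Relative to endothelin-1, MYL3 was higher in the combined cultures (1.01 ± 0.29, edgeR adjusted p = 0.00607), although the 2 groups overlapped. That call rested on combined replicate 1: without it the change was 0.28 ± 0.23 with an adjusted p of 0.396. Without both shallow libraries it was 0.33 ± 0.13 with an adjusted p of 0.0461, and without the filter 0.48 ± 0.27 with an adjusted p of 0.315. Endothelin-1 against vehicle gave -0.23 ± 0.29 with an adjusted p of 0.61 and a 95% interval from -0.81 to 0.35. Both compounds against vehicle gave 0.78 ± 0.30 with an adjusted p of 0.271, and it was called without vehicle replicate 2 (0.91 ± 0.24, adjusted p = 0.0269). It was 0.14 ± 0.24 without combined replicate 1 (adjusted p = 0.907) and 0.40 ± 0.15 without both shallow libraries (adjusted p = 0.223).

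MYL4 (chr17:47200446-47223679, plus strand), the atrial and fetal essential chain, had its highest mean in the combined cultures. It stood at 20085, 9938 and 7629 CPM in the combined cultures, 2854, 2690 and 2648 CPM with endothelin-1, 2056, 2088 and 2036 CPM with sacubitrilat and 4645, 14417 and 7038 CPM with vehicle. Every combined and vehicle culture lay above every single-compound culture. MYL4 was higher in the combined cultures than with endothelin-1 (2.12 ± 0.33, edgeR adjusted p = 3.35e-06) and than with sacubitrilat (2.64 ± 0.33, adjusted p = 8.22e-08). It was lower than in vehicle with endothelin-1 (-1.50 ± 0.32, adjusted p = 0.000587) and with sacubitrilat (-2.02 ± 0.33, adjusted p = 1.57e-05). Without the 2 shallowest libraries these 4 changes kept their direction and calls, at 1.64 ± 0.12, 2.17 ± 0.12, -1.07 ± 0.12 and -1.60 ± 0.12.

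Among the 6 libraries of low total, MYL4 was highest in the 2 of lowest total, with 20085 CPM at 87281 counts in combined replicate 1 and 14417 CPM at 80844 counts in vehicle replicate 2, and it was lowest, at 4645 CPM, in vehicle replicate 1 with 316932 counts. The part of the library total in the MYL4 difference was not tested. At like totals, MYL4 did not pass between both compounds and vehicle (0.61 ± 0.32, adjusted p = 0.456) or between endothelin-1 and sacubitrilat (0.52 ± 0.31, adjusted p = 0.338, interval from -0.11 to 1.16). The endothelin-1 to sacubitrilat difference was called when these groups alone were fitted (0.53 ± 0.06, edgeR adjusted p = 1.45e-08) and without the 2 shallowest libraries (0.53 ± 0.11, adjusted p = 0.000182). Both compounds against vehicle was called without those libraries (0.56 ± 0.14, adjusted p = 0.0209) and without vehicle replicate 2 alone (0.91 ± 0.25, adjusted p = 0.0428). It was 0.17 ± 0.29 without combined replicate 1 alone (adjusted p = 0.904).

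**Figure D2:**
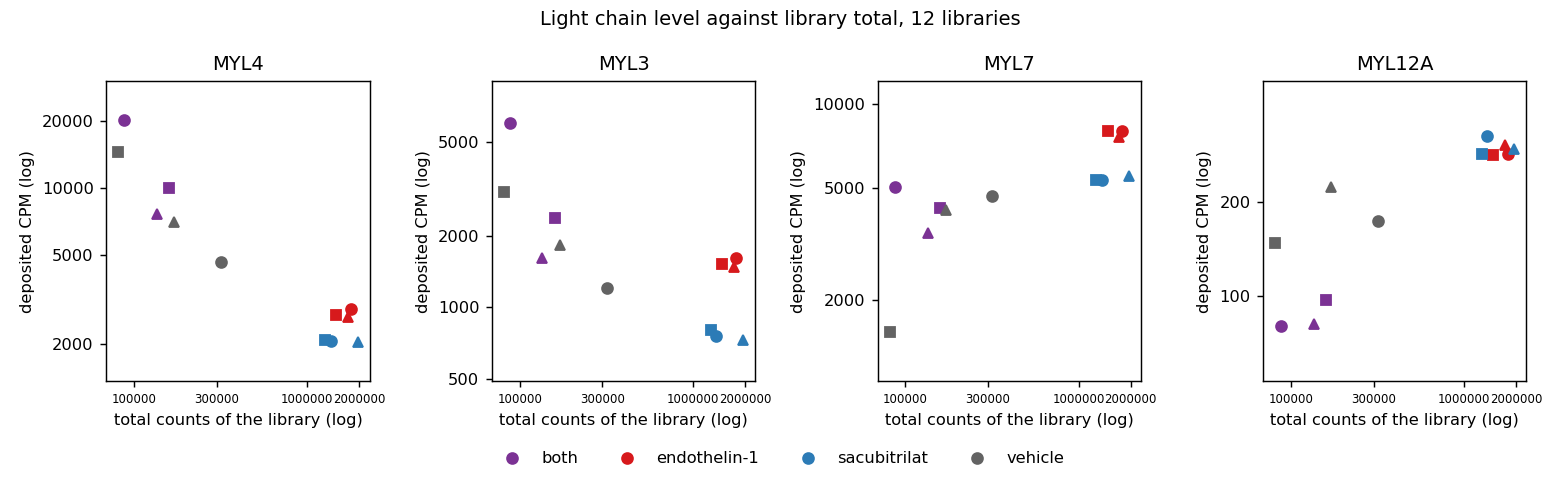
Deposited CPM (vertical axes, log) of MYL4, MYL3, MYL7 and MYL12A against the total counts of each library (horizontal axes, log), with 1 marker per culture, coloured by group and with the replicate shapes as circle, square and triangle for 1, 2 and 3. The 6 combined and vehicle libraries reach at most 316932 total counts and the 6 single-compound libraries have at least 1268308. The split of single-compound cultures from combined and vehicle cultures is thus also the split by depth.

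MYL6, the essential chain of non-muscle and smooth muscle myosin, had its highest level in the combined cultures. It stood at 5213, 3017 and 2990.0 CPM there, 1918, 1864 and 1874 CPM with endothelin-1, 1813, 1712 and 1769 CPM with sacubitrilat and 1836, 2264 and 2042 CPM with vehicle. The combined cultures lay above all others. MYL6 was higher with both compounds than with endothelin-1 (0.91 ± 0.24, edgeR adjusted p = 0.003) and than with sacubitrilat (1.12 ± 0.24, adjusted p = 0.000381). Without combined replicate 1 the first change was 0.57 ± 0.23 and not called (adjusted p = 0.0598), while without both shallow libraries it was 0.62 ± 0.11 (adjusted p = 1.02e-05). Without the filter on low counts neither was called (0.40 ± 0.29 and 0.61 ± 0.29, adjusted p = 0.465 and 0.178).

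At like totals, MYL6 for both compounds against vehicle gave 0.90 ± 0.25 with an adjusted p of 0.121 by edgeR. DESeq2 called it (0.92 ± 0.19, adjusted p = 0.00015), limma-voom did as well (0.86, adjusted p = 0.0344), and edgeR called it without the 2 shallowest libraries (0.59 ± 0.12, adjusted p = 0.00568). Among the other groups the change was -0.02 ± 0.24 for endothelin-1 against vehicle, -0.23 ± 0.24 for sacubitrilat against vehicle and 0.21 ± 0.23 for endothelin-1 against sacubitrilat, and none was called in the fit of all groups. Fitted alone, endothelin-1 against sacubitrilat was called (0.22 ± 0.06, adjusted p = 0.00683).

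MYL12A, a non-muscle regulatory chain, was lowest in the combined cultures. It stood at 80.2, 97.6 and 81.5 CPM there, from 7, 15.5 and 11 counts. It stood at 284.0, 282.6 and 304.5 CPM with endothelin-1, 324.6, 284.6 and 294.9 CPM with sacubitrilat and 173.5, 148.4 and 222.7 CPM with vehicle. The combined cultures lay below every vehicle culture, and the vehicle cultures below every single-compound culture. MYL12A fell with both compounds relative to endothelin-1 (-1.74 ± 0.25, edgeR adjusted p = 1.09e-06) and relative to sacubitrilat (-1.68 ± 0.25, adjusted p = 2.4e-06), and these calls held under all 24 alternatives run for each. It rose relative to vehicle with endothelin-1 (0.69 ± 0.18, adjusted p = 0.00481) and with sacubitrilat (0.63 ± 0.18, adjusted p = 0.0125). Thinned to 80000 counts per library, these last 2 changes were 0.74 ± 0.30 and 0.51 ± 0.31 and neither was called (adjusted p = 0.0799 and 0.238). The rise with sacubitrilat was also lost when those groups alone were fitted (0.51 ± 0.19, adjusted p = 0.0739) and with a mean of at least 50 counts (0.36 ± 0.15, adjusted p = 0.0808). Between endothelin-1 and sacubitrilat the change was 0.06 ± 0.11, with an interval from -0.16 to 0.29.

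At like totals, MYL12A for both compounds against vehicle was -1.05 ± 0.32, with an unadjusted p of 0.00192 and an edgeR adjusted p of 0.158. DESeq2 called it (-1.02 ± 0.30, adjusted p = 0.0214), and so did edgeR without vehicle replicate 2 (-1.25 ± 0.31, adjusted p = 0.0208).

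MYL12B, whose coding sequence is the near copy printed above, passed in none of the 6 pairwise comparisons. Its level was 160.4, 166.9 and 148.2 CPM in the combined cultures, 186.3, 186.9 and 187.6 CPM with endothelin-1, 194.6, 177.0 and 191.5 CPM with sacubitrilat and 123.1, 222.7 and 146.5 CPM with vehicle. The vehicle cultures spanned all the others. Its changes ran from -0.28 ± 0.21 for both compounds against endothelin-1 to 0.40 ± 0.19 for endothelin-1 against vehicle (edgeR adjusted p = 0.305 and 0.12). The first was called without vehicle replicate 1 (-0.53 ± 0.22, adjusted p = 0.0497) and without the filter (-0.77 ± 0.25, adjusted p = 0.0205). MYL12A made up 35.6% ± 2.38 of the counts of the pair in the combined cultures, 60.8% ± 0.985 with endothelin-1, 61.6% ± 0.946 with sacubitrilat and 52.9% ± 11.2 with vehicle (SD, n = 3 each). Vehicle replicate 2 stood at 40.0% from 30 counts, and without it the vehicle mean was 59.4%.

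**Figure D3:**
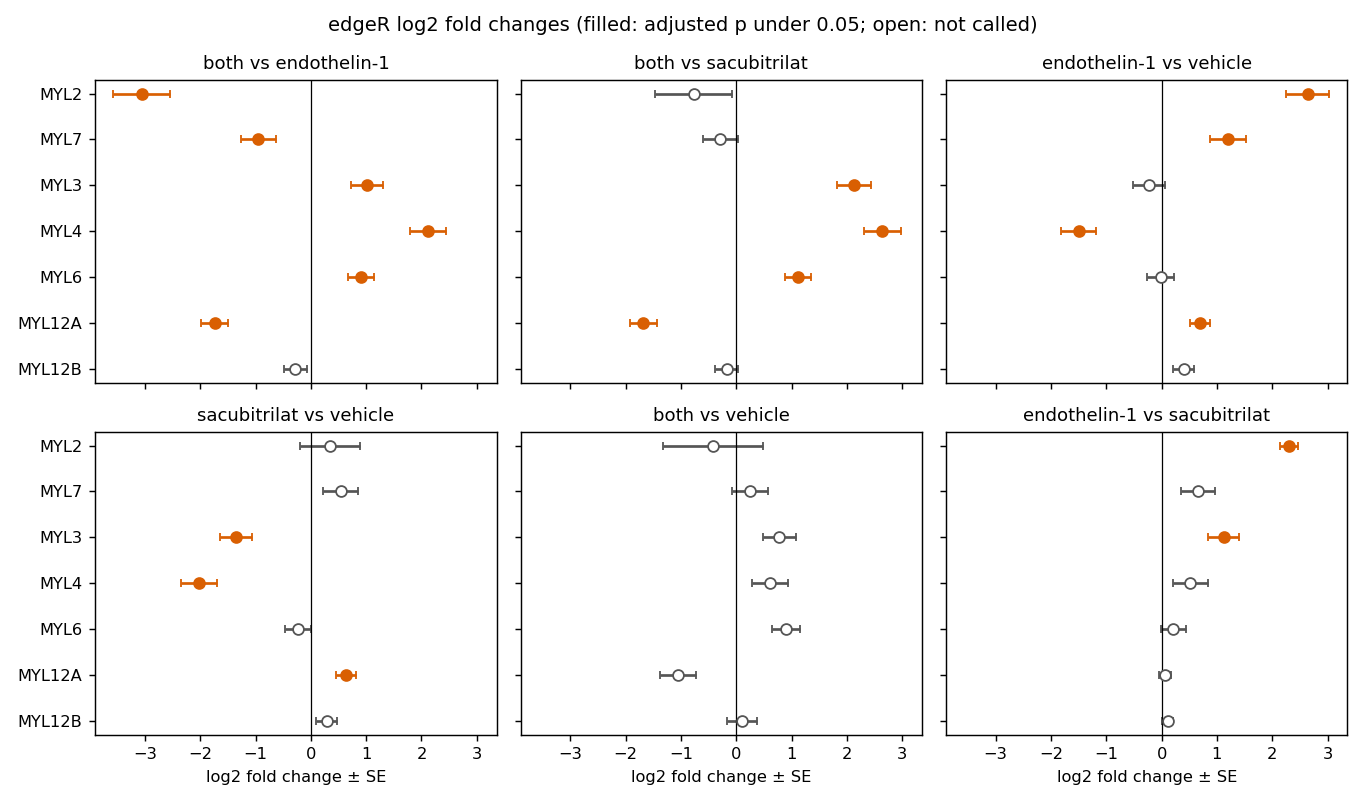
Log2 fold changes with SE (horizontal axes) of the 7 genes in the 6 pairwise comparisons, from the edgeR quasi-likelihood test on all 12 libraries. Filled points had an adjusted p under 0.05. MYL12A is filled to the left in both comparisons of the combined cultures with a single compound, and no gene is filled for both compounds against vehicle.

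Counted over the family, both compounds against endothelin-1 called 6 of 7 genes, 3 higher and 3 lower, where 34.4% of all tested genes were called. Endothelin-1 against vehicle called 4 of 7, 3 higher and 1 lower, against a background of 23.2%. Sacubitrilat against vehicle called 3 of 7, 1 higher and 2 lower, against 19.9%. Both compounds against sacubitrilat called 4 of 7, 3 higher and 1 lower, against 35.0%. All 4 comparisons set libraries of low total against libraries of high total.

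At like totals the counts were smaller. Both compounds against vehicle called 0 of 7 genes by edgeR, against a background of 0.179%, with 3 of 7 at an unadjusted p under 0.05, where 11.6% of all tested genes were. DESeq2 called 2, MYL12A and MYL6, and gave MYL2 no adjusted p, where it called 4.93% of the genes it gave one. The limma-voom fit called 1 of 7, against 0.0893%. Endothelin-1 against sacubitrilat called 2 of 7, MYL2 and MYL3, the ventricular forms, both higher, against a background of 11.2%. The higher level was not limited to ventricular forms. With those groups fitted alone, the atrial MYL7 and MYL4 and the non-muscle MYL6 were also called higher (0.67 ± 0.06, 0.53 ± 0.06 and 0.22 ± 0.06). The median log2 change of the 7 genes was -0.28 for both compounds against endothelin-1, where that of all tested genes was -0.23. It was 0.40 for endothelin-1 against vehicle and 0.52 for endothelin-1 against sacubitrilat, where those of all tested genes were 0.10 and -0.01.

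The interaction term tests whether the endothelin-1 change differed with and without sacubitrilat, and it called 6 of 7 genes, where 46.1% of all tested genes were called. It was positive for MYL4 (4.14 ± 0.46, edgeR quasi-likelihood adjusted p = 2.45e-09), MYL3 (2.36 ± 0.41, adjusted p = 1.32e-05) and MYL6 (1.14 ± 0.34, adjusted p = 0.00604), the essential chains. It was negative for MYL2 (-3.41 ± 0.76, adjusted p = 0.000411), MYL12A (-2.36 ± 0.31, adjusted p = 9.96e-08) and MYL7 (-1.49 ± 0.45, adjusted p = 0.00695), all regulatory chains. MYL12B stood at -0.57 ± 0.28 (adjusted p = 0.0931). Of the 3 further light chain genes tested, the interaction called 2, both positive. These were MYL9, a regulatory chain (2.51 ± 0.37, edgeR adjusted p = 6.31e-07), and MYL6B (0.77 ± 0.31, adjusted p = 0.0397). The negative sign was thus not shared by all regulatory chains. The interaction sets the 2 groups of low total against the 2 of high total, so it cannot be told apart from the library total. Single libraries moved its size: without vehicle replicate 1 it was -5.72 ± 1.06 for MYL2 and -2.25 ± 0.48 for MYL7 (adjusted p = 1.08e-05 and 9.51e-05). Without combined replicate 1 it was 1.55 ± 0.31 for MYL3 and 3.53 ± 0.40 for MYL4, and without vehicle replicate 2 it was 3.54 ± 0.33 for MYL4 (adjusted p = 7.31e-05, 4.69e-10 and 1.16e-13). The filter moved it too: without one it was -4.13 ± 0.78 for MYL2, -2.22 ± 0.51 for MYL7, -3.10 ± 0.37 for MYL12A, 1.53 ± 0.39 for MYL3 and 3.30 ± 0.51 for MYL4, and at a mean of at least 50 counts it was -1.67 ± 0.26 for MYL12A, 3.30 ± 0.56 for MYL3, 5.11 ± 0.56 for MYL4 and 1.99 ± 0.33 for MYL6, all still called. For MYL6 it was lost without combined replicate 1, combined replicate 2, vehicle replicate 1 or vehicle replicate 3 (adjusted p = 0.0502, 0.0551, 0.0995 and 0.112) and without the filter (0.35 ± 0.41, adjusted p = 0.882). For MYL7 it was lost at a mean of at least 50 counts (-0.75 ± 0.39, adjusted p = 0.115). For MYL12B it was called without combined replicate 2, vehicle replicate 1 or vehicle replicate 2 (adjusted p = 0.0386, 0.0302 and 0.0196) and without the filter (-1.31 ± 0.34, adjusted p = 0.00122). All 7 values moved down without the filter, and every gene still tested at a mean of at least 50 counts moved up. The filter thus moved the light chains together, as a common offset.

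Shares within a library do not depend on its scaling. The ventricular form MYL2 made up 0.245% ± 0.0435 of MYL2 plus MYL7 counts in the combined cultures, 1.09% ± 0.0932 with endothelin-1, 0.355% ± 0.0357 with sacubitrilat and 0.203% ± 0.241 with vehicle (SD, n = 3 each). The endothelin-1 cultures ran from 1.01% to 1.19%, above every other culture. Exact intervals were wide where counts were few: combined replicate 1, with 1 of 441 counts, had a 95% interval from 0.00574% to 1.26%, and vehicle replicate 2, with 0 of 125 counts, one up to 2.91%. The floor of 3 counts corresponds to 2.4% there. Endothelin-1 replicate 1, with 153 of 14464 counts, had an interval from 0.898% to 1.24%. Intervals and floors cover counting error only.

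The ventricular form MYL3 made up 19.9% ± 2.85 of MYL3 plus MYL4 counts in the combined cultures, 36.1% ± 0.239 with endothelin-1, 27.1% ± 0.639 with sacubitrilat and 19.6% ± 1.79 with vehicle. At the like totals of the single-compound groups the shares did not overlap, with 35.8% to 36.2% for endothelin-1 and 26.5% to 27.7% for sacubitrilat. The combined cultures, from 17.5% to 23.0%, overlapped the vehicle cultures, from 17.5% to 20.6%. MYL6, MYL12A and MYL12B together made up 17.2% ± 2.72 of the counts of all 7 genes in the combined cultures, 16.2% ± 0.396 with endothelin-1, 21.5% ± 0.665 with sacubitrilat and 14.8% ± 2.41 with vehicle. The sacubitrilat cultures, from 20.8% to 22.2%, lay above all others, the nearest being combined replicate 3 at 20.2%.

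**Figure D4:**
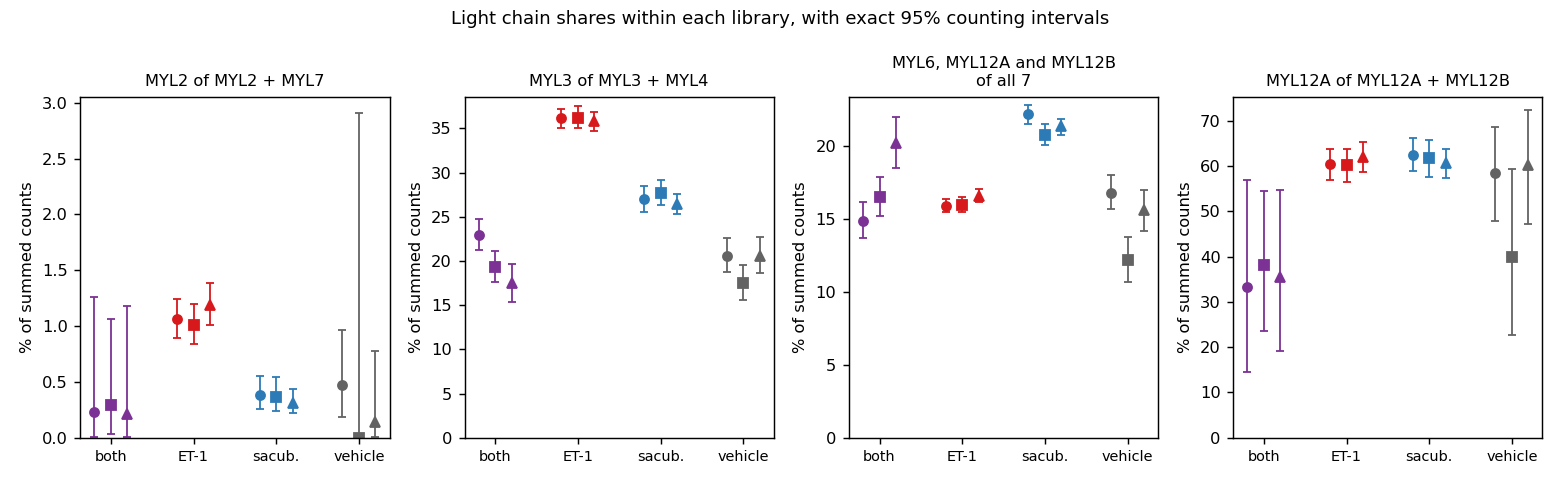
Shares of counts within each library (vertical axes, percent) for MYL2 of MYL2 plus MYL7, MYL3 of MYL3 plus MYL4, the 3 non-muscle chains of all 7 genes, and MYL12A of MYL12A plus MYL12B, with 1 marker per culture, shaped by replicate, and exact 95% counting intervals. The ventricular shares are highest with endothelin-1, at 1.01% to 1.19% for MYL2 and 35.8% to 36.2% for MYL3.

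The summed level of the 7 genes was 24143 ± 10971 CPM in the combined cultures, 14608 ± 379.0 CPM with endothelin-1, 10505 ± 68.3 CPM with sacubitrilat and 16614 ± 4593 CPM with vehicle (SD, n = 3 each). The combined cultures, from 15947 to 36606 CPM, lay above all endothelin-1 and sacubitrilat cultures and overlapped the vehicle cultures, from 12690.4 to 21665 CPM.

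As a description, the CPM of MYL2 and MYL7 rose and sank together over the 12 libraries (Pearson r = 0.944 on the log2 scale), as did those of MYL3 and MYL4 (r = 0.895), while MYL12A ran against MYL4 (r = -0.908). These libraries share treatment groups and totals. Among the 3204 genes compared with MYL2, and the 3203 with each other member here, all with a symbol and a mean of at least 50 CPM, those most like MYL2 were MT-ND3 (r = 0.983), a mitochondrial complex I subunit, NPPA (r = 0.951), the atrial natriuretic peptide, and FILIP1 (r = 0.949). Those most like MYL7 were JAG1 (r = 0.981), RRAD (r = 0.976) and MASP1 (r = 0.967). IDH2 (r = 0.973), KCNN2 (r = 0.958) and PDLIM5 (r = 0.957) were most like MYL3, and NDUFV1 (r = 0.993), ACOT11 (r = 0.989) and NDUFA13 (r = 0.988) most like MYL4.

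Other genes of the same machinery moved as follows. Of 6 further light chain genes 3 were tested, and MYL9, the smooth muscle regulatory chain, was higher in the combined cultures than with endothelin-1 (1.17 ± 0.26, edgeR adjusted p = 0.000545), as the essential chains were, and lower with sacubitrilat than with vehicle (-1.35 ± 0.26, adjusted p = 0.000216). For endothelin-1 against vehicle it was -0.65 ± 0.26 and not called (adjusted p = 0.0595). MYL6B was called in no pairwise comparison, and MYL5 passed only for both compounds against sacubitrilat (1.62 ± 0.62, adjusted p = 0.0396).

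Of 7 myosin heavy chains, all tested, endothelin-1 against vehicle called 4 higher and 0 lower (median 0.92, all genes 0.10), and both compounds against endothelin-1 called 0 higher and 2 lower (median -0.25, all genes -0.23). MYH7, the slow ventricular heavy chain, averaged 3150 ± 153 CPM with endothelin-1 and 1400 ± 251 CPM with vehicle (1.22 ± 0.25, edgeR adjusted p = 0.000472). MYH7 averaged 3020 ± 951 CPM in the combined cultures and was not called against endothelin-1 (-0.13 ± 0.25, adjusted p = 0.7), where MYL2 fell. MYH10, a non-muscle heavy chain that carries the non-muscle light chains, fell with both compounds relative to endothelin-1 (-1.63 ± 0.24, adjusted p = 1.77e-06), as MYL12A did, and MYH9, another, did not pass (-0.25 ± 0.21, adjusted p = 0.365). At like totals, endothelin-1 against sacubitrilat called 5 heavy chains higher and 0 lower (median 1.03, all genes -0.01), with MYH7 at 1.58 ± 0.25 (adjusted p = 1.37e-05) and the smooth muscle heavy chain MYH11 at 1.03 ± 0.12 (adjusted p = 3.73e-08).

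Of 18 genes for light chain kinases, the myosin phosphatase and their regulators, 16 were tested. Both compounds against endothelin-1 called 3 higher and 7 lower (median -0.61, all genes -0.23), and endothelin-1 against vehicle called 6 higher and 2 lower (median 0.40, all genes 0.10). MYLK3, the cardiac light chain kinase that phosphorylates MYL2, averaged 333 ± 69.7 CPM with both compounds, 124 ± 5.6 CPM with endothelin-1, 133 ± 7.39 CPM with sacubitrilat and 310 ± 147 CPM with vehicle. It was called higher with both compounds than with endothelin-1 (1.33 ± 0.20, edgeR adjusted p = 1.8e-06) and lower with endothelin-1 than with vehicle (-1.01 ± 0.18, adjusted p = 8.3e-05), the reverse of MYL2 in these comparisons of unlike totals. At like totals, MYLK3 for endothelin-1 against sacubitrilat was 0.01 ± 0.12 (adjusted p = 0.973), where MYL2 was 2.30 ± 0.16. PPP1CB, the catalytic subunit of myosin phosphatase, averaged 44.7 ± 14 CPM with both compounds, 229 ± 13.7 CPM with endothelin-1, 214 ± 13.2 CPM with sacubitrilat and 93.7 ± 17.3 CPM with vehicle. It fell with both compounds relative to endothelin-1 (-2.39 ± 0.30, adjusted p = 9.07e-08). At like totals, endothelin-1 against sacubitrilat called 3 of the 16 genes higher and 0 lower (median 0.01, all genes -0.01), among them MYLK at 0.44 ± 0.12 and the phosphatase subunit PPP1R12B at 0.66 ± 0.18 (adjusted p = 0.011 and 0.00922), and both compounds against vehicle called 0.

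Chamber markers other than the light chains were listed beside them. Of 8 ventricular markers 5 were tested, and endothelin-1 against sacubitrilat called all 5 tested higher (median 0.82, all genes -0.01), as it called MYL2 and MYL3. The 3 too low to test did not have a higher mean with endothelin-1, with IRX4 at 8.58 and 11.8 CPM, HEY2 at 8.85 and 12.1 CPM and HAND1 at 7.54 and 8.13 CPM with endothelin-1 and with sacubitrilat. Endothelin-1 against vehicle called 4 higher and 0 lower (median 1.44, all genes 0.10), and both compounds against endothelin-1 called 0 higher and 3 lower (median -1.59, all genes -0.23). PLN, the phospholamban gene, averaged 50.7 ± 32.5 CPM with both compounds and 654 ± 25.4 CPM with endothelin-1 (-3.61 ± 0.39, edgeR adjusted p = 3.19e-09), and FHL2, a LIM protein of the heart, also fell (-2.27 ± 0.40, adjusted p = 3.12e-05). Of 12 atrial markers 9 were tested, and the called ones went both ways, with 2 higher and 2 lower for endothelin-1 against vehicle (median 0.11, all genes 0.10) and 2 higher and 2 lower for endothelin-1 against sacubitrilat (median -0.07, all genes -0.01). Of these, NPPA, which adult ventricle also expresses under load, was higher with endothelin-1 than with sacubitrilat (1.34 ± 0.29, adjusted p = 0.00101), as was SLN, the atrial calcium pump regulator sarcolipin (2.34 ± 0.34, adjusted p = 2.84e-06). NR2F2, an atrial transcription factor, was lower (-0.93 ± 0.15, adjusted p = 1.64e-05).

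Markers of other cell types also differed between the groups. The 9 fibroblast markers, none at 0 in any group, summed to 2005 to 4525 CPM in the combined cultures, 6767 to 7628 CPM with endothelin-1, 7084 to 7391 CPM with sacubitrilat and 1806 to 5037 CPM with vehicle, so their sums lay higher in every single-compound culture than in any other, as MYL12A did. Collagens make up most of these sums, with COL1A1, COL3A1 and COL1A2 averaging 2910, 2910 and 984 CPM with endothelin-1. Not every marker followed the sum. Both compounds against endothelin-1 called 6 of the 9 lower and 1 higher, THY1 (1.55 ± 0.30, edgeR adjusted p = 0.000122). The 8 endoderm and liver markers, none at 0 in any group, summed to 459.4 to 618.7 CPM in the combined cultures, 56.69 to 84.14 CPM with endothelin-1, 48.47 to 60.42 CPM with sacubitrilat and 197.2 to 680.3 CPM with vehicle, so their sums lay lower in every single-compound culture than in any other, as MYL4 did. The 7 smooth muscle markers, which include MYL9 and MYH11, summed to 7016 to 8925 CPM in the combined cultures, 6055 to 6405 CPM with endothelin-1, 4540 to 4597 CPM with sacubitrilat and 5529 to 6646 CPM with vehicle. MYL9, itself a light chain, averaged 6240 CPM of that sum in the combined cultures. Both compounds against endothelin-1 called MYL9 alone of the 7 higher, and 4 lower (median -0.79, all genes -0.23): ACTA2 at -2.51, CNN1 at -1.91, LMOD1 at -1.73 and MYH11 at -0.79 (edgeR). The 7 endothelial markers summed to at most 44.03 CPM in any culture, with CDH5 at 0 in every group but sacubitrilat and KDR and VWF at 0 in the combined and vehicle groups. The 5 pluripotency markers summed to at most 17.58 CPM in any culture, with POU5F1 at 0 in the sacubitrilat and vehicle groups. The 6 epicardial markers summed to 37.79 to 91.66 CPM in the combined cultures, 41.25 to 58.35 CPM with endothelin-1, 155.7 to 187.9 CPM with sacubitrilat and 117.2 to 148.4 CPM with vehicle. The 8 skeletal muscle markers reached at most 52.34 CPM, with MYOD1, MYOG, MYF5 and MYF6 at 0 in every group. The part of these cell types in the light chain differences was not tested.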

How the data were processed

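Per the labels' protocols, mRNA was primed with poly(dT) and sequenced as stranded single-end 3′-end-counting libraries, so a count stands for a transcript end and does not scale with gene length. The submitters' processing notes name fastp 0.24.0, featureCounts and GRCh38, and no source used here gives the aligner or the annotation release. The authors deposited estimated counts and CPM per gene. Counting precision is lowest in the combined and vehicle libraries, from 80844 to 316932 counts.

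Counts were rounded and fitted with edgeR 4.0.16 (R 4.3.3, TMM, filterByExpr, group as the sole term, all 12 libraries), with Benjamini-Hochberg adjustment over 11203 genes. The test was checked on simulated counts. DESeq2 1.42.0, limma-voom 3.58.1, other scalings, filters, depths, labels and left-out libraries were alternatives. Those for the MYL12A share of MYL12A plus MYL12B were chosen after seeing the data. The members, lists and named genes (all 7 members, and at most 4 called genes per list and comparison with the smallest adjusted p) were chosen with earlier results of these data known. Replicate numbers, which the labels give as the batch, showed no pairing, and no block was used.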

Additional observations from a re-analysis of the deposited data

Results flagged for a closer look

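For 6 light chain genes the change with endothelin-1 differed in the presence and absence of sacubitrilat, by the interaction term of the edgeR fit. The same term called 46.1% of all tested genes. The interaction was 4.14 for MYL4, 2.36 for MYL3 and 1.14 for MYL6 on the log2 scale. It was -3.41 for MYL2, -2.36 for MYL12A and -1.49 for MYL7. Without the 2 libraries under 100000 counts the values were 3.24 for MYL4, 1.40 for MYL3, 0.87 for MYL6, -3.20 for MYL2, -2.23 for MYL12A and -1.23 for MYL7, and all 6 were still called. Without vehicle replicate 1 it was -5.72 for MYL2 and -2.25 for MYL7, and without combined replicate 1 it was 1.55 for MYL3 and 3.53 for MYL4. It was 3.54 for MYL4 without vehicle replicate 2. These were called as well. For MYL6 the call was lost without combined replicate 1 or 2 or vehicle replicate 1 or 3 (edgeR adjusted p = 0.0502, 0.0551, 0.0995 and 0.112). It was also lost without the filter on low counts (0.35, adjusted p = 0.882). The MYL7 call was lost at a mean of at least 50 counts (-0.75, adjusted p = 0.115). Every term of the interaction sets libraries of low total against libraries of high total, and the treatment and the total cannot be told apart.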

How the results depend on the processing

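The count of called light chains stayed within 1.5 times the reported one in both compounds against endothelin-1, sacubitrilat against vehicle, both compounds against sacubitrilat and the interaction under every alternative run. Without any 1 library the counts ran from 4 to 7, 3 to 4, 4 to 4 and 5 to 7. Over the same omissions the calls among all genes ran from 2912 to 4909, 1450 to 2441, 2816 to 5068 and 3718 to 6084. Those reported were 3854, 2228, 3925 and 5163. Endothelin-1 against vehicle called 4 without any 1 library and 2 when thinned to 80000 counts. Its calls among all genes ran from 1812 to 2871 over those omissions, with 2596 reported. MYL2 fell below the filter when thinned, at a mean of at least 50 counts and for both compounds against vehicle fitted alone, so those counts are of 6 genes. The DESeq2 count for both compounds against vehicle is also of 6, as MYL2 had no adjusted p there. Both compounds against vehicle called 2 with DESeq2, 1 with limma-voom, 1 at a mean of at least 50 counts, 2 without the 2 libraries under 100000 counts and from 0 to 4 without any 1 library, 4 being without vehicle replicate 2; over the same omissions the calls among all genes ran from 6 to 221, the highest also without vehicle replicate 2, with 20 reported. Endothelin-1 against sacubitrilat called 1 with DESeq2, 1 at a mean of at least 50 counts, 4 without the 2 shallow libraries, 0 when thinned, 5 when fitted on those groups alone and from 1 to 3 without any 1 library, 1 being without sacubitrilat replicate 1 or 3. Over the omissions of 1 library the calls among all genes ran from 681 to 1672, with 1257 reported. Light chain counts under the other settings, and with the replicate block below, are given without the calls among all genes. They are therefore not results about light chains alone. For both compounds against endothelin-1 and for endothelin-1 against vehicle, thinning and the stricter filter on mean counts also lowered the calls among all genes. With the endothelin-1 and sacubitrilat labels exchanged, the direction of this comparison turns round by construction, with MYL2 at -2.30 and MYL3 at -1.12. Thinning moved the MYL2 share of MYL2 plus MYL7 to 0.175% with both compounds, 1.44% with endothelin-1 and 0.233% with sacubitrilat, the MYL3 share of MYL3 plus MYL4 to 35.4% with endothelin-1 and 27.8% with sacubitrilat, the non-muscle share to 16.9% with endothelin-1 and the MYL12A share of MYL12A plus MYL12B to 62.8% with sacubitrilat. Thinning was 1 random draw from each library, and a move is listed where it exceeded the SD of the share in its group. The cause of these moves was not tested. Scaling by library totals alone shifted the median of all genes by -0.12 for endothelin-1 against sacubitrilat. Scaling factors were recomputed after each filter, and changing the filter moved all tested light chains the same way for both compounds against endothelin-1. MYL6 went from 0.91 to 0.40 without the filter and to 1.41 at a mean of at least 50 counts. MYL12B went from -0.28 to -0.77 and to 0.14. Calls of genes with small changes depend on this offset. Depth limits MYL2 most, with 4 counts in all in the combined cultures and 8 in the vehicle cultures.

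Same-numbered libraries deviated from their group means with r from -0.146 to 0.0396 over 18 pairs, and 3 of 12 libraries correlated best with their own number. With the replicate number as a block, 6, 4, 3, 4, 0 and 2 light chains were called in the 6 pairwise comparisons (both compounds against endothelin-1, endothelin-1 against vehicle, sacubitrilat against vehicle, both compounds against sacubitrilat, both compounds against vehicle, endothelin-1 against sacubitrilat) and 6 in the interaction, the same counts as without it.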
